A study of Mus musculus with 12 samples.

Results

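The mitochondrial genome of the mouse carries 37 genes, and the expression table of this series listed all 37 of them under symbols that start with mt-, out of 55228 gene symbols. They comprised 13 genes for proteins, 2 for rRNAs (mt-Rnr1 and mt-Rnr2) and 22 for tRNAs. They were chosen by symbol and not by any measured value. Of the 37, 35 had a mean TPM (a length-corrected share of all transcripts in a library) of at least 1 and were tested. The tRNA genes mt-Tr and mt-Ts2 were listed at 0 in every library.

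The cells were regulatory T cells (Tregs) of NOD.Foxp3-GFP mice, taken from lymph nodes as GFP+CD25+ cells. Cells of 16 mice were pooled, divided into 3 parts, and each part was sorted on its own machine and activated separately. The replicates 1, 2 and 3 of each group are therefore cultures from one pool and not separate animals, and p-values measure only the spread between these cultures. Transduction took place on day 2, and per the study's methods a wash on day 4 removed the IL-2 added until then. The transduced cells, marked by Thy1.1, were collected on day 9, 5 days after the wash. EV no IL-2 was an empty vector carrying Thy1.1 and cultured without IL-2 after the wash. EV+IL-2 was the same vector left in medium with IL-2. The groups 1G12t and 3A10t expressed the orthoIL-2 variant 1G12 or 3A10 tethered to the orthoIL-2 receptor β chain, and had no added IL-2 after the wash. The comparison asks how far the tethered ligands stand in for supplied IL-2 in Tregs, and each group had 3 libraries.

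All protein products of the mitochondrial genome are subunits of the respiratory chain and ATP synthase, which work together with many nuclear-encoded subunits imported from the cytosol. Both strands are transcribed by the polymerase POLRMT with TFAM as long RNAs that are cut into single transcripts, largely at the tRNAs that lie between the other genes. In activated T cells, respiration and the supply of both sets of subunits accompany growth, and IL-2 is a main growth signal of Tregs.

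Treg markers were present in every library. Foxp3 lay between 369.2 and 509.8 scaled TPM (TPM divided by a median-of-ratios factor of its library) and was lower in all 3A10t libraries (463.3, 369.2 and 391.2) than in the other 9 (483.8 to 509.8). Il2ra, the IL-2 receptor α chain, lay between 309.7 and 731.7. The summed level of 3 B cell markers was between 8.33 and 16.03 scaled TPM and that of 2 CD8 T cell markers between 3.45 and 6.51. Of 5 myeloid markers only Cst3 was above 0 in all 12 libraries, and the list summed to 539.4 to 764.1 in 3A10t and 441.5 to 554.7 in the other groups. The part of these Foxp3 and Cst3 levels in the differences of 3A10t was not tested. The table holds no read counts, so the depth is unknown. The 3A10t libraries varied more than the others: the median within-group SD over genes was 0.22 on the log2 scale in 3A10t and between 0.11 and 0.15 in the other groups. In 3A10t replicate 2 the 10 most abundant genes held 13.5% of all TPM, against 8.85% to 12.01% in the other 11 libraries.

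The protein genes are not all alone in the table, because the nuclear genome holds a block of mitochondrial sequence on chromosome 1 (GRCm38, chr1:24611535-24616197, minus strand) whose annotated pseudogenes are copies of them. A search of the GENCODE transcripts found 7 copies with at least 99% identity over at least 90% of the copy. Gm28661, Gm10925, Gm28437, Gm10222 and Gm28439 matched mt-Co2, mt-Atp6, mt-Co3, mt-Nd4l and mt-Nd4 over 681, 678, 783, 294 and 876 bases with 100% identity. The other two each differed from the gene by a single base. Gm29216, which covers the last 483 bases of mt-Co1, carried A1066T, and Gm28438, a copy of mt-Nd3, carried T3C, with positions counted from 1 at the 5′ end of the mitochondrial gene. The bases around these changes are shown because no other base differs within the aligned stretch of either pair, 483 bases of mt-Co1 and 345 of mt-Nd3. Outside it mt-Co1 is longer than its copy, and the copy, of 492 bases, aligned only from its base 10 on. The changed base is in capitals:

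mt-Co1: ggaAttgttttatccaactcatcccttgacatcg
Gm29216: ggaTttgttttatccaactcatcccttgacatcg
mt-Nd3: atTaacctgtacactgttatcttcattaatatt
Gm28438: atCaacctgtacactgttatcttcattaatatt

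The gene mt-Nd4l, shown next, has no such base at all in the 294 bases it shares with its copy. It lies at chrM:9877-10173 on the plus strand and encodes a small subunit of complex I. Capitals mark the 7 bases that it also shares with the next gene, mt-Nd4:

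mt-Nd4l: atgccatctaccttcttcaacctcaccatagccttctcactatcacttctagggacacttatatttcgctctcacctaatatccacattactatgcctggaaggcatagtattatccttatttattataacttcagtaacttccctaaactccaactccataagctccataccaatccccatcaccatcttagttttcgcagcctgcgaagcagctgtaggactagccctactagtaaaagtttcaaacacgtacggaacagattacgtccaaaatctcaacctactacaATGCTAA

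In the deposited values mt-Nd4l was nearly absent while its copy was abundant. mt-Nd4l was listed at 0 in 4 of the 12 libraries and at no more than 35.47 TPM in the rest, whereas Gm10222 lay between 1269 and 1993 TPM. In every library over 98% of their summed, length-weighted level stood in the row of the copy. The cytochrome oxidase gene mt-Co3 had 317.4 to 735.9 TPM in its own row and its copy Gm28437 had 4732 to 6731 TPM. There the copy held 87.6% to 95.3% of the sum. For mt-Co2 the copy held 32.9% to 58.5%, for mt-Nd3 34.2% to 79.5%, for mt-Atp6 4.60% to 24.1% and for mt-Co1 17.01% to 23.7%. For mt-Nd4 it held at most 0.0425%.

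**Figure D1:**
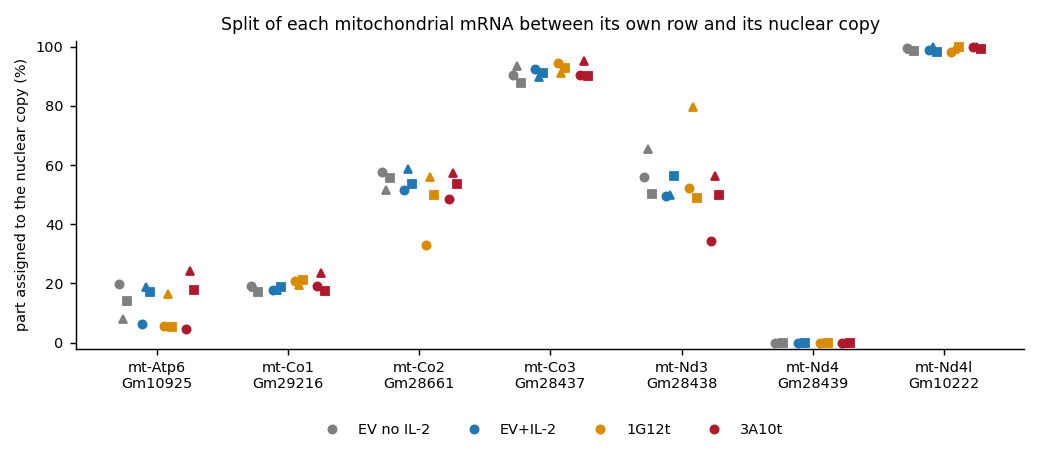
Percent of the summed level of a mitochondrial gene and its near-identical nuclear copy that stood in the row of the copy (y axis), for 7 pairs (x axis) and 12 libraries, coloured by group, with circles, triangles and squares for replicates 1, 2 and 3. The split ran from almost none in the copy for mt-Nd4 to nearly all for mt-Nd4l, and for mt-Nd3 it ranged from 34.2% to 79.5% between libraries.

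The split moved between libraries of one group. In 1G12t the share of the mt-Nd3 pair in the copy was 52.1%, 79.5% and 48.9% in replicates 1, 2 and 3, and the share of the mt-Co2 pair was 32.9%, 55.8% and 50.0%. When the copy was added to its gene, weighted by the ratio of their lengths, libraries of one group lay closer together for some genes. The pooled within-group SD on the log2 scale went from 0.35 to 0.15 for mt-Nd3 and from 0.24 to 0.10 for mt-Co2. It went from 2.26 to 0.19 for mt-Nd4l and from 0.39 to 0.09 for mt-Co3, whose copy row alone had 0.12. It hardly changed for mt-Atp6 (0.184 to 0.177), mt-Co1 (0.195 to 0.178) and mt-Nd4 (0.191 both times). The median SD over the 7 genes went from 0.24 to 0.18, and the 6 protein genes without such a copy had a median of 0.14. Taken alone, Gm28437 was called higher in 3A10t against EV no IL-2, at 0.46 ± 0.09 (SE) on the log2 scale with an adjusted p of 0.037 in limma. For these reasons results are given for the rows as deposited, which is the main test, and with the copies added, which was chosen after the data were seen. How much of the RNA in the copy rows came from chromosome 1 was not tested.

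With the copies added, the protein genes spanned a 29.5-fold range of mean level over the 12 libraries. The ATP synthase subunit mt-Atp6 was highest, with 11016 scaled TPM, followed by the cytochrome c oxidase subunits mt-Co1, mt-Co2 and mt-Co3 with 9066, 6582 and 6104. The other ATP synthase subunit, mt-Atp8, had 5477, and mt-Cytb, the one mitochondrially encoded subunit of complex III, had 3476. All 7 complex I genes were lower. mt-Nd1, mt-Nd4 and mt-Nd4l had 2452, 1843 and 1672, mt-Nd6, mt-Nd2 and mt-Nd5 had 757.2, 643.7 and 618.2, and mt-Nd3 had 372.9. mt-Co2 and mt-Co3 overlapped in their ranges over libraries (4844 to 7517 and 4655 to 7904), as did mt-Nd6, mt-Nd2 and mt-Nd5. In the rows as deposited, mt-Co3 stood only at rank 13 of the 15 protein and rRNA genes.

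Some neighbours share reads by position. mt-Atp8 and mt-Atp6 overlap by 43 bases on the plus strand, and mt-Nd5 and mt-Nd6 overlap by 14 bases on opposite strands. Since strand was not stated for these libraries, reads from mt-Nd6, the single protein gene on the minus strand, cannot be told apart from reads of the plus-strand RNA across it. mt-Atp8 is shown with the bases it shares with mt-Atp6 in capitals (chrM:7766-7969, plus strand), because a read that lies in the shared bases fits both rows:

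mt-Atp8: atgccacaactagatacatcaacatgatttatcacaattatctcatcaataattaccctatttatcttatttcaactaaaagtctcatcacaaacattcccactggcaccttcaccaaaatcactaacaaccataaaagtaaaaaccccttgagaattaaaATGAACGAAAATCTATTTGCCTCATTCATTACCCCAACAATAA

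As a share of all TPM, the mitochondrial genome differed little between the 4 groups, and this share was not tested. The 37 genes held 6.65% ± 0.70 (SD, n = 3) in 3A10t and 6.50% ± 1.04 in 1G12t. The empty-vector cells had 6.54% ± 0.34 without IL-2 and 6.20% ± 0.35 with it. The ranges of all groups overlapped. The library with the lowest share was 1G12t replicate 3, at 5.33%, and that with the highest was 1G12t replicate 1, at 7.32%. The 13 protein genes held 2.76% to 4.25%, the 2 rRNA genes 0.790% to 1.44% and the 22 tRNA genes 1.55% to 2.12%. The 7 nuclear copies held a further 1.39% to 2.07%, with 2.00% ± 0.097 in 3A10t against 1.63% to 1.80% for the means of the other groups. TPM divides by the length left for a read, which is very short for a tRNA gene, so the tRNA share overstates their part of the reads. In bulk RNA, fewer cells of a type and less RNA per cell cannot be told apart.

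**Figure D2:**
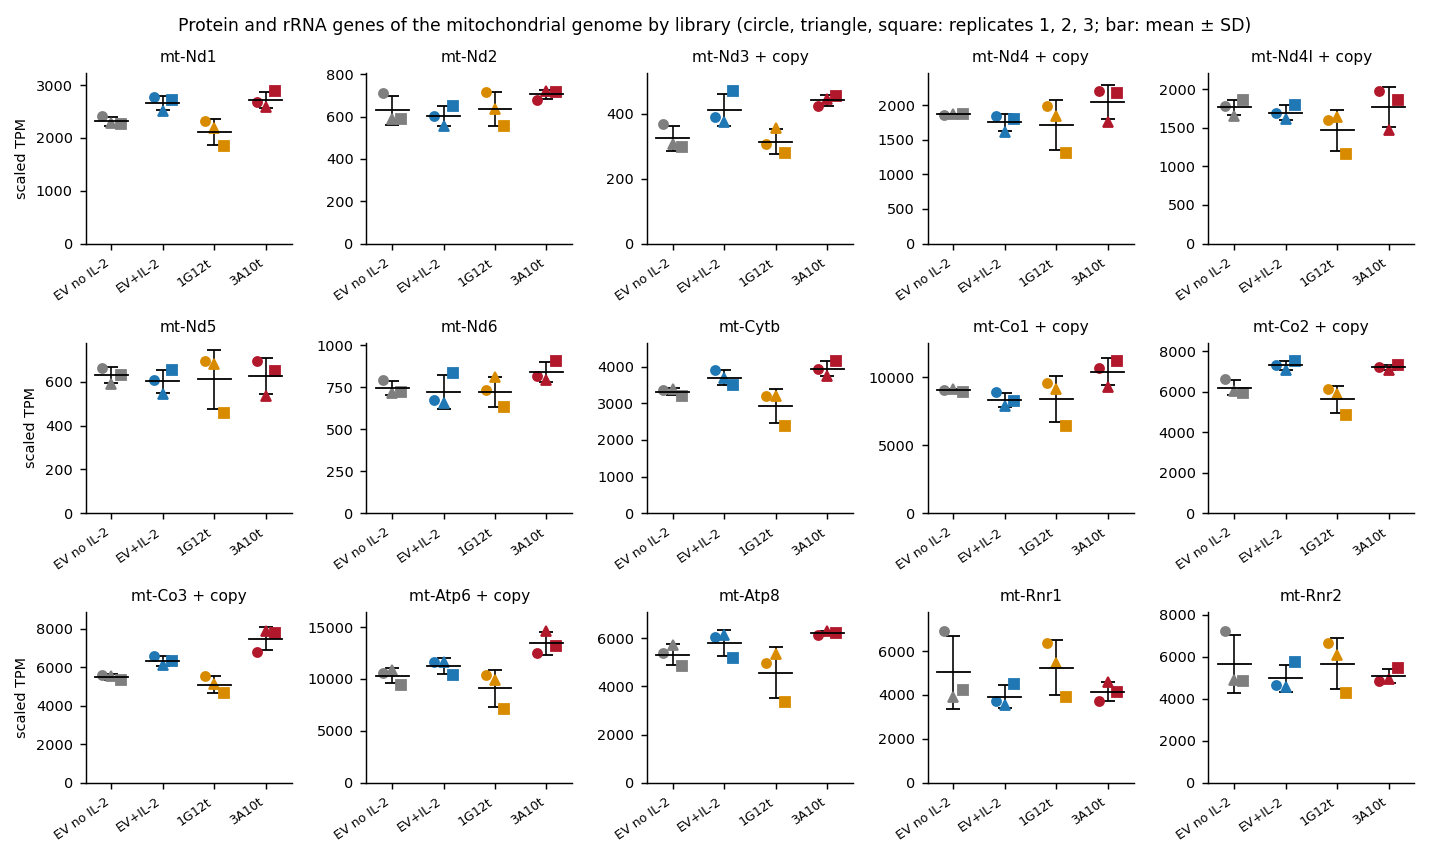
Scaled TPM (y axis, from 0) of the 13 protein genes and 2 rRNA genes in each library by group (x axis), with the near-identical nuclear copy added where the title says so. Horizontal lines and error bars are the group mean ± SD of 3 libraries. For mt-Co3 with its copy the 3A10t libraries (6796 to 7904) sat above all others, and 1G12t replicate 3 was the lowest library for most protein genes.

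No mitochondrial gene passed the test with supplied IL-2. Against EV no IL-2, limma called 0 of 35 genes in EV+IL-2 at an adjusted p (Benjamini-Hochberg over all genes tested) under 0.05, and 2 of 35 had an unadjusted p under 0.05. Over all 15043 genes tested, 8.17% were called higher and 5.13% lower, and 3951 had an unadjusted p under 0.05. The median log2 fold change of the 13 protein genes was 0.125, with 7 higher and 6 lower, against −0.01 over all genes. mt-Nd1, a core subunit of complex I, had 2767, 2507 and 2709 scaled TPM with IL-2 and 2415, 2284 and 2257 without it. These libraries did not overlap, yet the log2 difference of 0.20 ± 0.09 (SE) had an adjusted p of 0.17 in limma. With copies added, again 0 of 35 were called by limma, where 13.3% of all genes were called. An unadjusted p under 0.05 was found for 5 of the 35 and for 3954 of all 15037 genes. The nearest to the threshold among protein genes were mt-Nd3 and mt-Co2, at log2 differences of 0.34 ± 0.12 and 0.24 ± 0.08 and adjusted p of 0.084 and 0.088 in limma.

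In 3A10t against EV no IL-2 none of the protein genes passed the test in the rows as deposited. limma called 0 of 35 genes, and 10 had an unadjusted p under 0.05. Over all 15043 genes 0.452% were called higher and 1.60% lower, and 3911 had an unadjusted p under 0.05. The log2 fold change was above 0 for 11 of the 13 protein genes, with a median of 0.18 against 0.03 over all genes. This median was 0.035 in TPM as deposited, where the all-gene median was −0.09, and −0.09 after quantile normalization, with 5 of 13 above 0. For mt-Atp6 every 3A10t library was above every library of the control. Its log2 difference was 0.35 ± 0.14 (SE), with an adjusted p of 0.14 in limma. mt-Nd3 differed by 0.76 ± 0.25, with an adjusted p of 0.11, and by 0.45 ± 0.12 with its copy added, with an adjusted p of 0.071 in limma. With the replicate number as a block, mt-Nd3 and mt-Tm passed, at adjusted p of 0.0498 and 0.0491 in limma, but mt-Nd3 did not pass with the block once its copy was added.

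With copies added, the sum of mt-Co3 and its copy Gm28437 rose in 3A10t. mt-Co3 encodes a subunit of cytochrome c oxidase, the enzyme that passes electrons to oxygen. The sum was 5607, 5566 and 5324 scaled TPM in EV no IL-2 and 6796, 7904 and 7751 in 3A10t. Its log2 fold change was 0.44 ± 0.08 (SE) with an adjusted p of 0.026 in limma. The copy held 87.6% to 95.3% of the sum. The row of mt-Co3 alone differed by 0.18 ± 0.28, with an adjusted p of 0.69 in limma. With copies added mt-Co3 was the 1 gene of 35 called, where 2.05% of all genes were called in either direction and 68 of 15037 higher. A count of 1 is too small to set against these shares. The call held in 5 of 12 alternatives with copies added, with adjusted p from 0.0016 to 0.90, and was lost after quantile normalization, with only the 6 libraries compared, without 3A10t replicate 2 or 3, or without any 1 of the EV no IL-2 libraries. Under the replicate block mt-Tm passed as well.

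No mitochondrial gene passed the test in 1G12t against EV no IL-2. limma called 0 of 35 mitochondrial genes, with 3 at an unadjusted p under 0.05, while 0.0133% of all genes were called higher and 0.00665% lower. With copies added the count was again 0, where 0.0200% of all genes were called. The median of the 13 protein genes was −0.145, with 11 below 0. Without 1G12t replicate 3 the median was 0.03 and 8 of 13 were above 0. The 95% intervals of the log2 difference were −0.33 to 0.05 for mt-Nd1 and −0.42 to 0.04 for mt-Cytb.

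Between the 2 tethered variants, 2 of 35 mitochondrial genes passed the test in the rows as deposited. In 3A10t against 1G12t, limma called mt-Cytb and mt-Nd1 higher and 0 genes lower, where 1.30% of all genes were called higher and 2.96% lower. The 2 calls are a larger share of 35 than that of all genes called higher, but a count of 2 is small. 12 of the 13 protein genes had a log2 fold change above 0, the exception being mt-Nd4l, and the median was 0.335 against −0.02 over all genes. mt-Cytb, whose product carries the b-type heme groups of complex III, had 3211, 3197 and 2394 scaled TPM in 1G12t and 3934, 3752 and 4159 in 3A10t. Its libraries did not overlap, although 1G12t replicate 3 was far below the other two. The log2 fold change was 0.44 ± 0.10 (SE) with an adjusted p of 0.045 in limma. mt-Nd1 had 2311, 2180 and 1842 in 1G12t and 2688, 2585 and 2878 in 3A10t. It rose by 0.37 ± 0.09 with an adjusted p of 0.044. The call of mt-Cytb held in 5 of 19 alternatives, with adjusted p between 0.0258 and 0.836, and that of mt-Nd1 in 6, with adjusted p between 0.0218 and 0.822. Without 1G12t replicate 3 neither was called and the median of the 13 was 0.15. In the fit with the replicate block 5 genes passed in limma, namely mt-Nd3, mt-Atp6, mt-Cytb, mt-Nd1 and mt-Atp8, at adjusted p of 0.0269 to 0.0423.

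With copies added, 6 protein genes rose in 3A10t against 1G12t, together with a call of mt-Tw lower, so 7 of 35 genes were called where 4.37% of all genes were. All 13 protein genes had a log2 fold change above 0, with a median of 0.37. mt-Co3 rose most clearly, from 5531, 5108 and 4655 scaled TPM in 1G12t to 6796, 7904 and 7751 in 3A10t. Its log2 fold change was 0.55 ± 0.08 (SE) with an adjusted p of 0.0098 in limma, and the call held in 9 of 12 alternatives. Most of this sum stood in the copy row, and the row of mt-Co3 alone differed by 0.66 with an adjusted p of 0.145 in limma. mt-Atp6, the proton channel subunit of ATP synthase, had 10374, 9881 and 7060 in 1G12t and 12493, 14658 and 13130 in 3A10t. It rose by 0.58 ± 0.13, with an adjusted p of 0.041. mt-Co2, a cytochrome c oxidase subunit that takes electrons from cytochrome c, rose by 0.37 ± 0.08, with an adjusted p of 0.041. mt-Nd3, a small complex I subunit, rose by 0.50 ± 0.12, with an adjusted p of 0.045 in limma. The calls of mt-Atp6, mt-Co2, mt-Nd3, mt-Cytb and mt-Nd1 held in 1 to 3 of 12 alternatives, and without 1G12t replicate 3 mt-Co3 was the only mitochondrial gene called in limma. With the replicate block mt-Nd3 and mt-Tw were lost and mt-Atp8 passed, at an adjusted p of 0.0416.

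The size of the 3A10t against 1G12t difference depended on the scaling. The median of the 13 protein genes was 0.335 with median-of-ratios factors, 0.14 in TPM as deposited, 0.145 over the total of nuclear genes and −0.04 after quantile normalization, with 12, 9, 9 and 5 of 13 above 0. In the TPM as deposited the median of all genes itself moved to −0.18, so that the protein genes lay 0.32 above it. After quantile normalization they lay 0.06 below it. The plot of differences shows the median-of-ratios values.

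**Figure D3:**
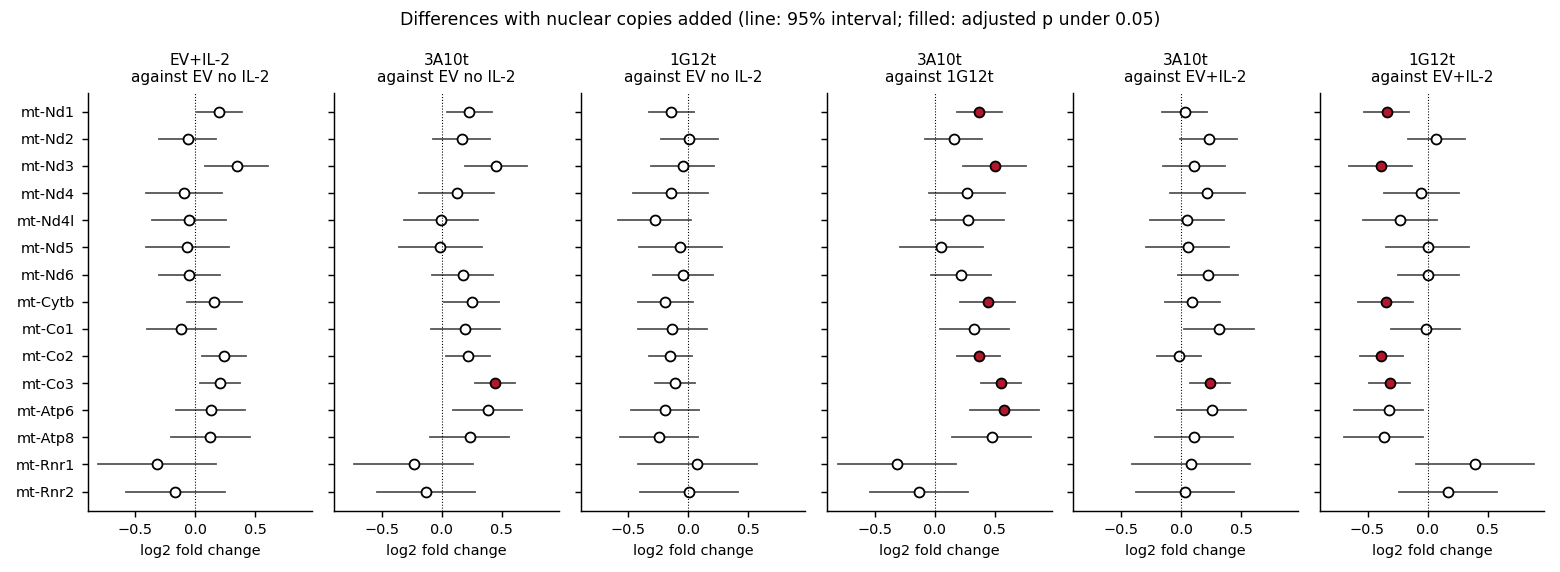
Log2 fold change (x axis) of the 13 protein genes and 2 rRNA genes (y axis) in the 6 comparisons, with copies added and median-of-ratios scaling. Lines are 95% intervals and filled points have an adjusted p under 0.05. All 13 protein genes lay above 0 in 3A10t against 1G12t, where 6 were called, while both rRNA genes lay below 0 and were not called.

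Against Tregs given IL-2, 10 of the 13 protein genes of 1G12t had a log2 fold change below 0 and 3 above it. In 1G12t against EV+IL-2, limma called mt-Nd1 and mt-Cytb lower and 0 genes higher, where 10.9% of all genes were called lower and 9.69% higher. A count of 2 of 35 is no larger a share than that of all genes. mt-Nd1 fell by 0.34 (SE 0.09) on the log2 scale, with an adjusted p of 0.017, and the call held in 14 of 19 alternatives. mt-Cytb fell by 0.35 (SE 0.10), with an adjusted p of 0.037 in limma, and the call held in 10 of 19. Both calls were lost in TPM as deposited, where the all-gene median moved to 0.11. Blocking on the replicate number let 4 genes pass in limma, mt-Nd1, mt-Nd3, mt-Cytb and mt-Atp8, at adjusted p of 0.0124 to 0.0435. Without 1G12t replicate 3 mt-Nd1 alone was called and the median of the 13 went from −0.24 to −0.02.

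With copies added, 5 genes fell in 1G12t against EV+IL-2, namely mt-Co2, mt-Co3, mt-Nd1, mt-Cytb and mt-Nd3, where 20.6% of all genes were called. mt-Co2 had 7326, 7067 and 7517 scaled TPM in EV+IL-2 and 6134, 5874 and 4844 in 1G12t, with no overlap. It fell by 0.39 (SE 0.08) with an adjusted p of 0.0079 in limma. mt-Co3 fell by 0.32 (SE 0.08) with an adjusted p of 0.014. Each of these 2 calls held in 11 of 12 alternatives. A count of 5 of 35 is a smaller share than that of all genes called in either direction. It is a larger share than that of all genes called lower, which were 1643 of 15037, with 1460 called higher. Without 1G12t replicate 3, mt-Co2, mt-Co3 and mt-Nd1 were called. With the replicate block mt-Nd3 was lost, and mt-Atp6 and mt-Atp8 passed at adjusted p of 0.0478 and 0.0429.

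In 3A10t against EV+IL-2 none of the 13 protein genes passed as deposited. limma called 1 of 35 genes, the tRNA gene mt-Tw, lower, where 23.4% of all genes were called in either direction. An unadjusted p under 0.05 was found for 5 of the 35 and for 5586 of all 15043 genes. The median of the 13 protein genes was 0.11, and the 95% interval of the difference was −0.16 to 0.22 for mt-Nd1 and −0.14 to 0.32 for mt-Cytb. With copies added, mt-Co3 was called higher, at 0.24 ± 0.08 (SE) and an adjusted p of 0.045 in limma, beside mt-Tw, with again 23.4% of all genes called. That call held in 1 of 12 alternatives, and the block and TPM as deposited were among those that lost it. With the replicate block and the rows as deposited, mt-Ts1, mt-Tm and mt-Tw passed in limma, at adjusted p of 0.0453, 0.0468 and 0.0417.

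The study used a looser rule, a log2 fold change beyond 0.25 with p under 0.01 before adjustment. By that rule 1 of 35 mitochondrial genes passed in EV+IL-2 against EV no IL-2, where 15.1% of all genes did. For the variants 3A10t and 1G12t against the same control the counts were 2 and 1, where 9.50% and 1.36% of all genes passed. In 3A10t against 1G12t 7 passed, where 12.4% of all genes did. They were mt-Nd1, mt-Nd3, mt-Cytb, mt-Atp6 and mt-Atp8, all higher, and 2 tRNA genes, both lower. Against EV+IL-2 1 passed in 3A10t, where 22.1% of all genes did, and 2 in 1G12t, where 20.3% did.

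In limma neither rRNA gene passed the test in any comparison, with 0 at an unadjusted p under 0.05, and with median-of-ratios scaling both had the opposite sign to the median of the protein genes in 5 of 6 comparisons. mt-Rnr1 encodes the RNA of the small ribosomal subunit of the mitochondrion and mt-Rnr2 that of the large one. mt-Rnr1 had 4150 ± 427 (SD, n = 3) scaled TPM in 3A10t, 5238 ± 1251 in 1G12t, 3922 ± 519 with supplied IL-2 and 5031 ± 1654 in the control without it. mt-Rnr2 had 5082 ± 341, 5667 ± 1223, 4978 ± 649 and 5658 ± 1374 in the same order. All groups overlapped for both genes. The 95% interval of 3A10t against 1G12t was −0.81 to 0.18 for mt-Rnr1. The libraries were primed with oligo-dT, and these RNAs carry at most short tails, so the level of an rRNA here is not its level in the cell.

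As proportions of the protein genes, with copies added, the 3 cytochrome c oxidase genes made up 43.4% ± 0.96 (SD, n = 3) of the summed scaled TPM of the 13 in 3A10t and 44.3% ± 1.24 in 1G12t, and 43.3% ± 0.67 and 43.0% ± 1.20 in the empty-vector cells without and with IL-2. The 2 ATP synthase genes made up 31.4% to 34.0% in the group means, the 7 complex I genes 15.8% to 17.5% and mt-Cytb 6.78% to 7.23%. mt-Co1 was lowest in EV+IL-2, at 16.3% ± 0.60, against 18.01% to 19.3% in the means of the other groups. mt-Co2 was highest there, at 14.3% ± 0.64, against 12.45% to 13.05%. mt-Nd5 made up 1.40% ± 0.084 in 1G12t and 1.085% ± 0.145 in 3A10t, and mt-Nd2 1.48% ± 0.11 and 1.22% ± 0.030, with no overlap between these groups for either gene. These shares were not tested.

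The tRNA rows behaved unlike the others. The 8 tRNA genes on the minus strand had a median of 277.3 TPM over their 12-library means, and the 14 on the plus strand had 22.7. By mean level the minus-strand genes held ranks 1 to 7 and rank 9 of the 22. mt-Ts1 was the most abundant row of the mitochondrial genome, at 12513 to 17954 TPM in the 12 libraries. mt-Tq had 918.1 to 1649 TPM and mt-Te 522.1 to 1198 TPM. These 3 genes are shown on their own strand, with mt-Tw of the plus strand for comparison:

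mt-Ts1: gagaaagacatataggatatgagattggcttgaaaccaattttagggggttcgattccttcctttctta
mt-Tq: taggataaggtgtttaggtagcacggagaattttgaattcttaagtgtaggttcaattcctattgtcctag
mt-Te: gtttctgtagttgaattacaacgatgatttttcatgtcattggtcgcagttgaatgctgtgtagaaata
mt-Tw: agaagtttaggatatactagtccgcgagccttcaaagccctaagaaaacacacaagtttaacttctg

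They lie at chrM:6870-6938, chrM:3772-3842, chrM:14071-14139 and chrM:4950-5016. mt-Ts1 lies against the 3′ end of mt-Co1 and overlaps its last 3 bases on the opposite strand. Its TPM was 1.73 to 2.35 times that of mt-Co1 in the 12 libraries. Without strand, reads from an mt-Co1 RNA that runs past its annotated end cannot be told apart from reads of mt-Ts1. The same limit holds for mt-Tq, mt-Te and the other minus-strand tRNA rows, which may hold reads of plus-strand RNA across them. The levels and ranks by strand are therefore those of the rows, and need not be those of the tRNAs.

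**Figure D4:**
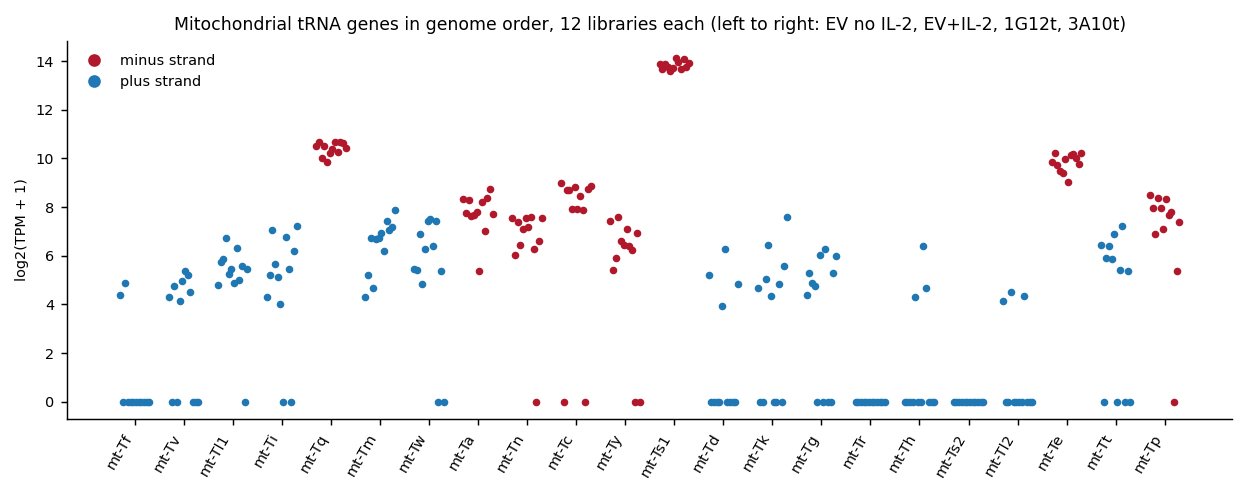
Level of the 22 mitochondrial tRNA genes (x axis, in genome order) as log2(TPM + 1) (y axis), 1 point per library, with minus-strand genes in red and plus-strand genes in blue. The minus-strand genes mt-Ts1, mt-Tq and mt-Te were the highest, and mt-Tr and mt-Ts2 were at 0 in all 12 libraries.

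Low tRNA values came in steps. Values of tRNA genes of equal length were divided by the smallest value above 0 of that length in the library. Of 66 such ratios of at most 10, 52 (78.8%) lay within 0.05 of a whole number. For genes of 69 bases the smallest value above 0 was 15.0 to 40.2 TPM in the 9 libraries of the other groups, and 130.4, 71.8 and 148.2 TPM in 3A10t replicates 1, 2 and 3. Genes of other lengths stood lower in these 3A10t libraries, so the smallest 69-base value need not be a single step. In replicate 1 mt-Tl1 (75 bases) had 46.36 TPM. In replicate 2 mt-Tg (68 bases) had 38.18 and in replicate 3 mt-Td (70 bases) had 27.93. 3A10t replicate 1 had 6 of 22 tRNA genes above 0, fewer than any other library, while replicates 2 and 3 had 14 and 13 and the other groups 12 to 19. Only mt-Tm of the plus-strand genes and mt-Ts1, mt-Tq, mt-Te and mt-Ta of the minus-strand genes were above 0 in all 12 libraries.

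mt-Tw, the tRNA gene for tryptophan, was the one tRNA gene that passed in the rows as deposited with median-of-ratios scaling, all 12 libraries and no block. It had 27.9, 77.8 and 167.0 scaled TPM in EV+IL-2 and was listed at 0, 47.6 and 0 in 3A10t replicates 1, 2 and 3. The adjusted p in limma was 0.034, and over 19 alternatives it lay between 0.000463 and 0.13, with 14 passing and without 3A10t replicate 1 or 3, or EV+IL-2 replicate 2 or 3, among those that did not. Both values at 0 stand in the 2 libraries with the largest of these smallest values, and their part in the call was not tested. mt-Ts1, whose values lie far above the step, had 13924, 12789 and 13414 scaled TPM in EV+IL-2 and 17237, 16028 and 16021 in 3A10t. Its groups did not overlap, and the log2 difference of 0.30 ± 0.11 (SE) had an adjusted p of 0.079 in limma.

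The nuclear-encoded partners of these proteins were taken from a list of subunits. Of 75 nuclear genes for subunits of complexes I, III, IV and V that were tested, 9 rose and 0 fell in EV+IL-2 against EV no IL-2 by limma, where 8.17% of all genes were called higher. Their median log2 fold change was 0.23 and 69 were above 0. Of the 9, 4 were complex IV genes and 5 complex V genes. Cox5a, a structural subunit of cytochrome c oxidase, had 426.7 ± 10.6 (SD, n = 3) scaled TPM with IL-2 and 299.1 ± 22.1 without it, a log2 fold change of 0.51 ± 0.12 (SE) with an adjusted p of 0.016 in limma. Cox6c, Cox7a2 and Cox4i1 rose by 0.47, 0.445 and 0.45. Atp5g3, which forms the rotating ring of ATP synthase, rose by 0.32 ± 0.07 with an adjusted p of 0.011. Atp5e, Atp5md, Atpif1 (the inhibitor of the enzyme) and Atp5b (its catalytic subunit) rose by 0.51, 0.49, 0.49 and 0.30. Under other scalings 14 to 19 of the 75 rose.

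In 3A10t against EV no IL-2, 0 of the 75 were called by limma, where 0.452% of all genes were called higher. An unadjusted p under 0.05 was found for 38 of the 75 and for 3911 of all 15043 genes. The log2 fold change was above 0 for 74 of the 75, and their median was 0.26. That median was 0.12 without 3A10t replicate 2 and 0.11 in TPM as deposited. In 3A10t against 1G12t 4 rose and 0 fell, where 1.30% of all genes were called higher, with a median of 0.32, while 10 rose with the replicate block, 1 after quantile normalization and 2 in TPM as deposited, and none was called without 1G12t replicate 3. In 1G12t against EV+IL-2 25 fell and 0 rose, with a median of −0.28, where 10.9% of all genes were called lower. Without 1G12t replicate 3, 13 fell, and after quantile normalization 10 fell and 1 rose. In 3A10t against EV+IL-2, where 23.4% of all genes were called, 1 rose, 0 fell and the median was 0.03. In TPM as deposited 2 rose, 7 fell and the median was −0.05, and without 3A10t replicate 2 none rose, 6 fell and the median was −0.12. The library that stood apart differed between the sets. 1G12t replicate 3 lay at −0.43 on the log2 scale from the 12-library mean for the 13 mitochondrial genes and at −0.17 for the nuclear ones, like replicates 1 and 2 of its group (−0.14 and −0.19). 3A10t replicate 2 lay at 0.43 for the nuclear genes and at 0.11 for the mitochondrial ones. Without 3A10t replicate 2, the median of the nuclear genes in 3A10t against 1G12t was 0.16 and none was called by limma (4 with it), and that of the mitochondrial protein genes was 0.39.

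**Figure D5:**
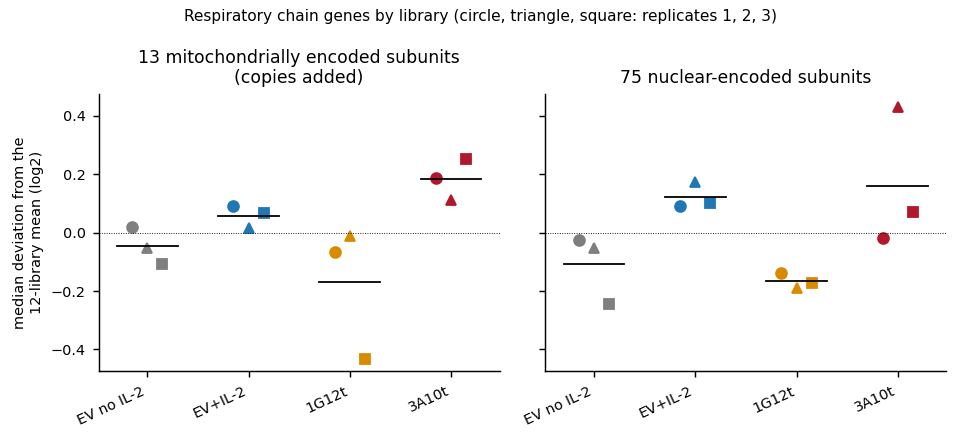
Median deviation from the 12-library mean of log2(scaled TPM + 1) (y axis) over the 13 mitochondrially encoded subunits with copies added and over 75 nuclear-encoded subunits, for each library by group (x axis). Lines are group means. The group means in 3A10t were 0.18 and 0.16 and those in 1G12t −0.17 and −0.17. 1G12t replicate 3 stood apart in the first set and 3A10t replicate 2 in the second, where the 3A10t libraries were at −0.02, 0.43 and 0.07 and those of EV+IL-2 at 0.09, 0.17 and 0.10.

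The machinery that makes and handles mitochondrial RNA was taken from a list of nuclear genes. Of 36 nuclear genes of mitochondrial transcription and RNA handling, 2 rose and 1 fell in EV+IL-2 against EV no IL-2, and 0 rose and 1 fell in 3A10t, by limma. Over all genes 8.17% rose and 5.13% fell with IL-2, and 0.452% and 1.60% in 3A10t, so these counts of calls are near the background. In 3A10t, 16 of the 36 had an unadjusted p under 0.05 in limma, against 3911 of all 15043 genes. There 11 of the 36 had a log2 fold change above 0, and the list median was −0.21 (all genes 0.03). It was −0.12 after quantile normalization and −0.35 in TPM as deposited (all genes 0.02 and −0.09). With IL-2, 4 of the 36 had such a p, against 3951 of all genes. There 10 lay above 0 and the list median was −0.09 (all genes −0.01). Rexo2, which degrades short RNAs in mitochondria, rose with IL-2 from 389.9 ± 31.6 (SD, n = 3) to 714.7 ± 48.3 scaled TPM, by 0.87 ± 0.12 (SE) on the log2 scale with an adjusted p of 0.00077. Tefm, the elongation factor, rose by 0.43 ± 0.11 and Mterf2 fell by 0.38 (SE 0.10), with adjusted p of 0.026 and 0.025 in limma. Pnpt1, a subunit of the RNA-degrading complex, fell in 3A10t from 19.95 ± 2.37 to 11.8 ± 2.78 scaled TPM, with an adjusted p of 0.038 in limma, a call that held in 15 of 31 alternatives. POLRMT itself (Polrmt) had 35.3 ± 9.84 in 3A10t, 39.3 ± 4.00 in 1G12t, 39.15 ± 1.24 with supplied IL-2 and 45.5 ± 0.39 in the control, and its difference in 3A10t was −0.40 with an adjusted p of 0.16. Tfam, which packages mitochondrial DNA and starts transcription, differed by −0.15 with a 95% interval of −0.30 to 0.01. Lrpprc, which stabilises mitochondrial mRNAs, had 15.7 ± 3.94 in 3A10t and 26.6 ± 1.39 in the control, a difference of −0.76 with an adjusted p of 0.064 in limma.

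Of 19 genes for replication of mitochondrial DNA and its nucleotide supply, 0 rose and 3 fell in EV+IL-2 against EV no IL-2 by limma (8.17% and 5.13% of all genes). In 3A10t 0 were called (0.452% and 1.60%). There 4 of the 19 had an unadjusted p under 0.05, as did 3911 of all 15043 genes. The genes that follow were called with IL-2. Slc25a33, a carrier of pyrimidine nucleotides, fell by 0.68 (SE 0.10) and Tk2, the mitochondrial thymidine kinase, fell by 0.61 (SE 0.10), with adjusted p of 0.0011 and 0.0016. Rrm2b fell by 0.52 (SE 0.125) with an adjusted p of 0.02. Of 12 regulators of mitochondrial biogenesis tested, set against the same shares of all genes, Myc rose and Nrf1 fell with IL-2, with log2 fold changes of 0.79 and −0.40 and adjusted p of 0.0049 and 0.036 in limma. Pprc1, a coactivator, and Prkaa1, a subunit of the kinase AMPK, fell in 3A10t by 0.70 and 0.71, with adjusted p of 0.044 and 0.03 in limma. The calls of Pprc1, Nrf1 and Prkaa1 held in 15, 18 and 20 of 31 alternatives, and that of Myc in all 31.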

How the data were processed

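RNA of 12 libraries (4 groups of 3) was deposited as 1 table of TPM per gene symbol. Per the labels and the study's methods, the authors amplified oligo-dT-primed cDNA for 15 cycles, tagmented it, added indexes in 9 cycles, read 50-base pairs, trimmed with Cutadapt 1.18, aligned with STAR 2.5.3 and estimated TPM with RSEM 1.3.0 on GENCODE M23 (GRCm38). RSEM shares reads that match several transcripts, which bears on genes with near-identical copies. The authors' DESeq2 1.26 comparisons were not used. TPM keeps no depth, so counting intervals were not computed.

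TPM was divided by median-of-ratios factors (0.854 to 1.09), and log2(value + 1) of the 15043 genes whose mean TPM reached 1 was fitted with limma 3.58.1 (trend, all 12 libraries, no replicate block), two-sided, with Benjamini-Hochberg adjustment over all genes tested. Fold changes are on that scale and understate low genes. A call is an adjusted p under 0.05. Copies were found with BLAST+ 2.17.0 in GENCODE M21 transcripts of the same build, which held 53569 of the 55228 symbols. Sequences and positions come from there. The scripts were tested on simulated data. The number of a replicate marks a shared sort, which pairs the libraries across groups. Deviations of same-numbered libraries correlated weakly (mean 0.041, from −0.105 to 0.155, 18 pairs), against −0.020 for different numbers.

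Named were all 13 protein and both rRNA genes, tRNA genes called in any comparison or among the 3 of highest mean, and from each nuclear list up to 5 called genes with the smallest p in 3A10t or EV+IL-2 against EV no IL-2, plus Polrmt, Tfam, Lrpprc and the nuclear copies. The members and lists were chosen with earlier results of these data known. Alternatives were other pseudocounts (0.1 and 5), filters, scalings, a block, a length correction and leaving out libraries, and the copies added, which was chosen after seeing the data.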

Additional observations from a re-analysis of the deposited data

How the results depend on the processing

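Depth is unknown from TPM, and tRNA values are close to its steps. All alternatives with copies added were chosen after seeing the data, and where a value changed the cause was not tested. Of 114 recomputed medians of the 13 protein genes, 100 moved by less than the spread between libraries, and 252 of 323 single-gene values kept direction and call. Most of these single-gene results were not called in the main fit. Of 19 alternatives, the calls of mt-Nd1 and mt-Cytb held in 6 and 5 in 3A10t against 1G12t. In 1G12t against EV+IL-2 they held in 14 and 10, and that of mt-Tw in 3A10t against EV+IL-2 held in 14. With quantile normalization the median of the 13 protein genes was −0.027 in EV+IL-2 and −0.086 in 3A10t against EV no IL-2, −0.044 in 3A10t against 1G12t and −0.065 in 3A10t against EV+IL-2. Single genes turned there as well, with −0.255 (mt-Atp6) and −0.06 (mt-Cytb) in 3A10t against EV no IL-2 and −0.144 (mt-Co1) and −0.05 (mt-Atp6) in 3A10t against 1G12t. In TPM as deposited and over the nuclear total the medians were 0.062 and 0.057 for EV+IL-2 and 0.035 and 0.037 for 3A10t against EV no IL-2.

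In 3A10t against 1G12t, 2 genes were called in the rows as deposited. The count was 4 and 1 with pseudocounts of 0.1 and 5, 0 without a filter, 6 with a mean TPM of at least 5, 0 after quantile normalization, 0 without a trend, 0 with a length correction and 1 with only the 6 libraries compared. In TPM as deposited it was also 2, but these were mt-Tv and mt-Tw. Over all 15043 genes there, 196 were called higher and 446 lower in the main fit. With a mean TPM of at least 5 these were 499 and 673 of 10042. They were 49 and 93 of 50219 without a filter and 8 and 4 of 16336 with 6 libraries. With pseudocounts of 0.1 and 5 they were 211 and 473, and 169 and 380. They were 187 and 293 after quantile normalization, 49 and 205 without a trend and 84 and 167 with a length correction. In 3A10t against EV+IL-2 the mitochondrial count was 2 with a pseudocount of 0.1 and 2 with a mean TPM of at least 5. In the same order, 1634 genes of 15043 were called higher and 1992 lower, and 820 and 1582 of 10042. In 1G12t against EV+IL-2 the mitochondrial count was 0 in TPM as deposited and 0 over the nuclear total. It was 1 each with quantile normalization, without a trend and with 6 libraries. In the same order, the calls over 15043 genes were 2011 higher and 1270 lower, 2043 and 1230, 1212 and 1342, and 1572 and 1522. With 6 libraries they were 1319 and 1873 of 14863. With the replicate block, which follows the shared sort, the mitochondrial count was 2 in 3A10t against EV no IL-2. It was 5 in 3A10t against 1G12t (1 with the length correction). It was 3 in 3A10t against EV+IL-2 and 4 in 1G12t against EV+IL-2 (4 with the length correction). In the same order, the block called 91 of all 15043 genes higher and 311 lower, 348 and 639, 1633 and 2085, and 1507 and 1639. The block changed no mitochondrial call in the other 2 comparisons.

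With copies added, EV+IL-2 against EV no IL-2 had 1 mitochondrial call after quantile normalization and 1 with 6 libraries. Over all genes these fits called 1105 higher and 855 lower of 15037, and 1797 and 1273 of 14033. For 3A10t against EV no IL-2 the mitochondrial counts were 0, 0 and, with the replicate block, 2. Over all genes the calls were 56 and 127 of 15037, 8 and 1 of 15188, and 90 and 311 of 15037. For 3A10t against 1G12t the mitochondrial counts were 4 in TPM as deposited, 3 over the nuclear total and 0 after quantile normalization. They were 1 with the length correction and 1 with 6 libraries. In the same order, the calls over 15037 genes were 100 higher and 1320 lower, 101 and 1165, 188 and 293, and 84 and 167. With 6 libraries they were 8 and 4 of 16330. For 3A10t against EV+IL-2 the mitochondrial count was 1 in TPM as deposited, over the nuclear total, with the length correction and with 6 libraries. In the same order, the calls over 15037 genes were 1236 higher and 2242 lower, 1283 and 2097, and 1610 and 1932. With 6 libraries they were 677 and 922 of 14498. For 1G12t against EV+IL-2 the mitochondrial count was 2, 1, 2 and 2 in TPM as deposited, over the nuclear total, after quantile normalization and with 6 libraries. In the same order, the calls over 15037 genes were 2011 higher and 1273 lower, 2022 and 1240, and 1212 and 1342. With 6 libraries they were 1322 and 1873 of 14857.

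Leaving out 1 library at a time gave 0 to 1 calls in EV+IL-2 against EV no IL-2, 0 to 2 in 3A10t and 0 to 1 in 1G12t against the same control, 0 to 6 in 3A10t against 1G12t, 0 to 2 in 3A10t against EV+IL-2 and 0 to 5 in 1G12t against EV+IL-2. With copies added the ranges were 0 to 1, 0 to 2, 0 to 1, 0 to 9, 0 to 2 and 1 to 6. The calls over all genes, in the rows as deposited, moved as well. In 3A10t against 1G12t they were 10 higher and 37 lower of 14889 without 1G12t replicate 3. Without 3A10t replicate 1 they were 1755 and 2384 of 14974. In 3A10t against EV no IL-2 they were 7 and 18 of 15035 without EV no IL-2 replicate 3. Without 3A10t replicate 1 they were 1184 and 2285 of 14974. In 3A10t against EV+IL-2 they ran from 815 and 1149 of 15241 to 2068 and 2983 of 14974. In 1G12t against EV+IL-2 they ran from 921 and 1089 of 15228 to 1206 and 1317 of 15169. The medians of the protein genes ran from −0.079 (without EV no IL-2 replicate 2) to 0.142, from 0.153 to 0.258, from 0.106 to 0.209 in 3A10t against EV+IL-2, and from −0.399 to −0.019 (without 1G12t replicate 3) in 1G12t against EV+IL-2. The share of TPM was 4.72%, 4.56%, 4.70% and 4.52% without the tRNA genes in 3A10t, 1G12t, and the empty vector without and with IL-2, and 8.65%, 8.14%, 8.31% and 7.999% with the copies.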
